A study of Macaca fascicularis with 6 samples.

Results

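The insulin receptor and 9 genes that act below it or restrain it were followed in liver of cynomolgus macaques (Macaca fascicularis) given vehicle or a ligand of LXR, the liver X receptor, a nuclear receptor that senses oxidised cholesterol. The 10 genes were INSR, IRS1, IRS2, PIK3R1, AKT1, AKT2, FOXO1, FOXO3, PTPN1 and GRB14, of 19775 genes named singly on the array. They were represented by 33 of its 54675 probe sets, namely those whose only annotated symbol was 1 of these 10. The genes were chosen by their place in the pathway with the differences in signal between ligand and vehicle arrays already known, so those differences stand as a description and support no claim about the pathway.

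The series held 6 Affymetrix arrays of liver RNA, 3 from animals given vehicle and 3 from animals given the ligand, with a different animal on each array. The titles mark the ligand arrays with the letters GW, and the sources used here name neither the compound nor its dose, the duration of treatment, or the animals' age and feeding. Values are MAS5 signals, intensities in arbitrary units on a linear scale. The probes were designed against human transcripts, and all 10 symbols also occur in the macaque gene annotation.

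Insulin binds its receptor on the hepatocyte surface, and the activated receptor phosphorylates the docking proteins IRS1 and IRS2. These recruit phosphatidylinositol 3-kinase, whose lipid product brings the AKT kinases to the membrane. AKT then phosphorylates the FOXO transcription factors, which leave the nucleus and no longer drive genes of glucose production. Much of this control acts on proteins by phosphorylation, which an RNA measurement does not read.

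The insulin receptor had lower mean signals with the ligand on every probe set, to an extent that differed between them. INSR encodes the receptor tyrosine kinase itself. On its second brightest probe set, 226216_at, the vehicle arrays gave signals of 2496, 2570 and 2138 and the ligand arrays 1178, 1074 and 1144. Every ligand array lay below every vehicle array, with little spread inside either group. The means were 2401 ± 231 (SD, n = 3) and 1132 ± 53.1 (SD, n = 3), a log2 difference of -1.07 ± 0.20 (SE) on the log2(signal + 16) scale used for all differences here, or 2.10-fold lower. Of 27304 probe sets bright enough to be tested, 1.80% had a log2 difference this low or lower. In limma's moderated test, with Benjamini-Hochberg adjustment over those 27304, the probe set did not pass (adjusted p = 0.387).

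The other INSR probe sets were also lower on average, by less. The brightest, 213792_s_at, gave 6627, 6469 and 5971 with vehicle and 4226, 4952 and 7032 with the ligand, so the groups overlapped because ligand array 3 was the highest of all 6. Its log2 difference was -0.27 ± 0.22 (SE), with a 95% interval from -0.74 to 0.21, and it was -0.47 when ligand array 3 was left out and -0.11 when ligand array 1 was. Probe set 207851_s_at gave 669, 668 and 851 with vehicle against 576, 402 and 616 with the ligand, again with no overlap, and a log2 difference of -0.46 ± 0.27 (SE). Ligand arrays 1 and 2 were thus low on all of these, while ligand array 3 was low on 226216_at and 207851_s_at but not on the brightest.

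Probe set 226450_at gave 513, 951 and 511 with vehicle and 310, 713 and 546 with the ligand, with overlapping groups. Its log2 difference of -0.34 ± 0.37 (SE) became -0.013 without ligand array 1. The dimmest, 226212_s_at, averaged under the signal of 129 required for testing, with 244, 193 and 76.7 under vehicle and 91.7, 103 and 58.8 under the ligand. All 5 INSR probe sets therefore had a lower mean signal with the ligand, and on 2 of the 5 the groups did not overlap. All ligand arrays fell below all vehicle arrays on 4.96% of tested probe sets.

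The receptor's 2 brightest probe sets did not move in step. The log2 ratio of 226216_at to 213792_s_at within an array was -1.41, -1.33 and -1.48 with vehicle and -1.84, -2.20 and -2.62 with the ligand. The ratio was lower on every ligand array than on any vehicle array, which shows unequal change of the 2 signals and does not say which of them follows the transcript. Ligand array 3, with the lowest ratio, also had the highest log2 ratio of 3' to 5' signal on the control probe sets for GAPDH and ACTB, 2.05 and 4.0, against 0.991 to 1.70 and 2.15 to 3.06 with vehicle and 1.17 to 1.38 and 2.62 to 2.65 on ligand arrays 1 and 2. This ratio is a measure of RNA integrity, and its part in the INSR values was not tested. The log2 difference of 226216_at was -1.15 to -1.02 when any single array was left out.

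**Figure D1:**
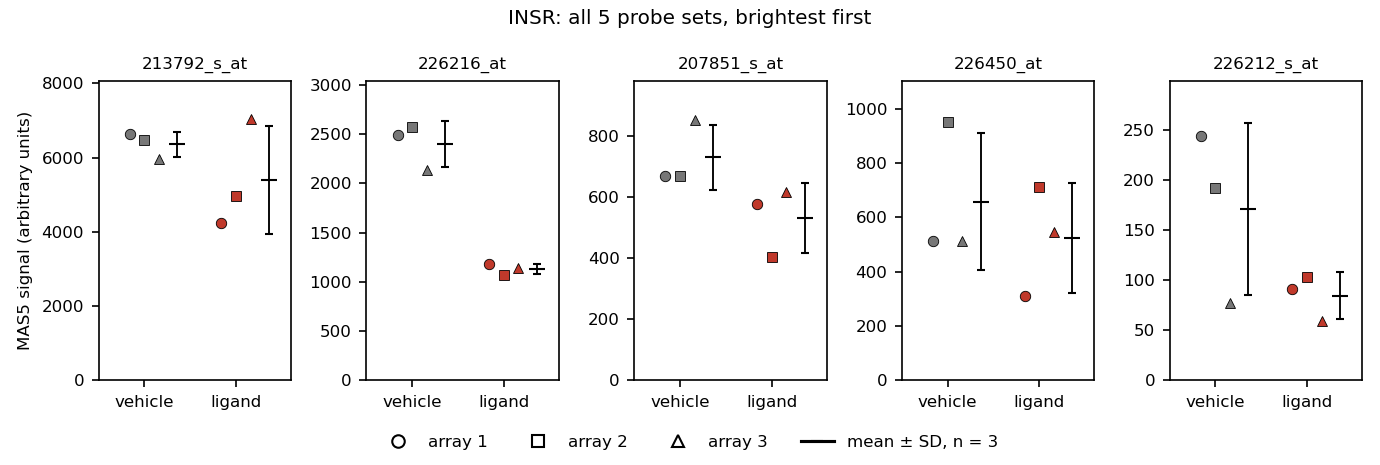
MAS5 signal (arbitrary units, axis from 0) of the 5 INSR probe sets on 3 vehicle (grey) and 3 ligand (red) arrays; symbols mark the array number and the bar the mean ± SD. On 226216_at the ligand arrays lie at 1074 to 1178 and the vehicle arrays at 2138 to 2570, while on 213792_s_at ligand array 3 is the highest array.

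The docking proteins had lower mean signals on their brightest probe sets, inside the spread between animals. IRS2, the main docking protein of the receptor in liver during fasting and a gene that FOXO1 drives, gave signals on 209185_s_at of 18251, 33588 and 30016 with vehicle and of 14065, 25726 and 22340 with the ligand. The groups overlapped, and array 1 was the lowest in each. The log2 difference was -0.40 ± 0.28 (SE), with a 95% interval from -1.01 to 0.22, while signals within a group spanned 1.84-fold with vehicle and 1.83-fold with the ligand. The second IRS2 probe set, 209184_s_at, had a log2 difference of -0.11 ± 0.35 (SE), which turned positive when ligand array 1 or either of vehicle arrays 2 and 3 was left out.

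IRS1, the docking protein that responds after feeding, gave 2020, 2240 and 1487 with vehicle and 1281, 1940 and 1610 with the ligand on 238933_at, again overlapping. Its log2 difference was -0.25 ± 0.25 (SE). Its other probe sets, 204686_at and 242979_at, had log2 differences of 0.23 ± 0.29 and 0.17 ± 0.40 (SE), so the 3 IRS1 probe sets had no common direction and no difference exceeded its error by much. The mean over the 3 probe sets was 0.049.

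PIK3R1 encodes the regulatory subunit that binds the docking proteins and holds the catalytic subunit of phosphatidylinositol 3-kinase. Its brightest probe set, 212239_at, gave 3213, 2793 and 3492 with vehicle and 3691, 3330 and 4500 with the ligand. Ligand array 2 lay inside the vehicle range and the other ligand arrays above it, for a log2 difference of 0.27 ± 0.20 (SE) and a 95% interval from -0.17 to 0.72. The other PIK3R1 probe sets had log2 differences of -0.0039 ± 0.22 and -0.011 ± 0.51 (SE). On the dimmest, 212249_at, ligand array 1 gave 385 and the other 5 arrays 96.1 to 190.

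The AKT kinases phosphorylate FOXO proteins and many other substrates of insulin action. AKT1 was read by 1 probe set, with 943, 621 and 1031 for vehicle and 1362, 639 and 805 for the ligand, and a log2 difference of 0.071 ± 0.32 (SE). The 95% interval ran from -0.65 to 0.79, so changes of that size in either direction are compatible with these arrays. Without ligand array 1 the difference was -0.23, and without vehicle array 2 it was also negative.

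AKT2, the form most tied to insulin's metabolic effects in liver, had 7 probe sets, of which 4 were bright enough to be tested. On the brightest, 225471_s_at, the vehicle arrays were close together at 2167, 2112 and 2103, and the ligand arrays gave 1483, 2039 and 1661. All ligand arrays were lower, with ligand array 2 just under the lowest vehicle array, for a log2 difference of -0.31 ± 0.21 (SE) and a 95% interval from -0.77 to 0.15. On the others tested, the log2 difference was 0.11 ± 0.30 on 236664_at, -0.36 ± 0.33 on 226156_at and -0.10 ± 0.48 on 203809_s_at, with overlapping groups on each. The 3 too dim to be tested had means under 75 in each group.

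FOXO1, the factor that insulin restrains through AKT and that drives genes of glucose output, gave 1554, 3127 and 3060 with vehicle and 1592, 2830 and 2256 with the ligand on 202724_s_at. The groups overlapped almost fully, with array 1 far below the others in both. The log2 difference was -0.18 ± 0.31 (SE), and it was 0.038 without ligand array 1 and -0.51 without vehicle array 1. The second probe set, 202723_s_at, behaved alike, with 1522, 3627 and 2447 against 1716, 2337 and 2477 and a log2 difference of -0.15 ± 0.31 (SE). The third, 228484_s_at, had -0.60 ± 0.57 (SE), which was -0.014 without ligand array 3, where the signal was 46.4.

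FOXO3, a relative of FOXO1 controlled in the same way, gave 10068, 14761 and 11294 with vehicle and 10944, 15735 and 13637 with the ligand on 224891_at. These groups overlapped, and the log2 difference was 0.16 ± 0.21 (SE), with a 95% interval from -0.30 to 0.62. All 4 FOXO3 probe sets had a higher mean with the ligand, the others at 0.046 ± 0.23, 0.41 ± 0.29 and 0.95 ± 0.60 (SE), and all 4 had overlapping groups. The largest of these came from the dimmest, 231548_at, with 111, 152 and 45.2 against 119, 356 and 170. A further 3 probe sets shared by FOXO3 and FOXO3B were left out by the rule, and the only one of them tested had a log2 difference of -0.12 ± 0.34 (SE).

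Among the restraints on the receptor, GRB14 was higher and PTPN1 was close between the groups. GRB14, an adaptor that binds the activated receptor and inhibits its kinase, gave 6208, 6728 and 3322 with vehicle and 6813, 7618 and 8963 with the ligand on its single probe set, 206204_at. The ligand arrays were all higher than the vehicle arrays, by a narrow margin against vehicle arrays 1 and 2 and a wide one against vehicle array 3. The means were 5419 ± 1835 and 7798 ± 1087 (SD, n = 3 each), for a log2 difference of 0.58 ± 0.27 (SE) with a 95% interval from -0.016 to 1.18, and 0.26 without vehicle array 3. All ligand arrays lay above all vehicle arrays on 5.99% of tested probe sets. PTPN1, the phosphatase that removes phosphate from the receptor, gave 1127, 966 and 1103 with vehicle and 1131, 865 and 971 with the ligand on its tested probe set. Its log2 difference was -0.11 ± 0.22 (SE), with a 95% interval from -0.61 to 0.39, and its other 3 probe sets were too dim to be tested.

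**Figure D2:**
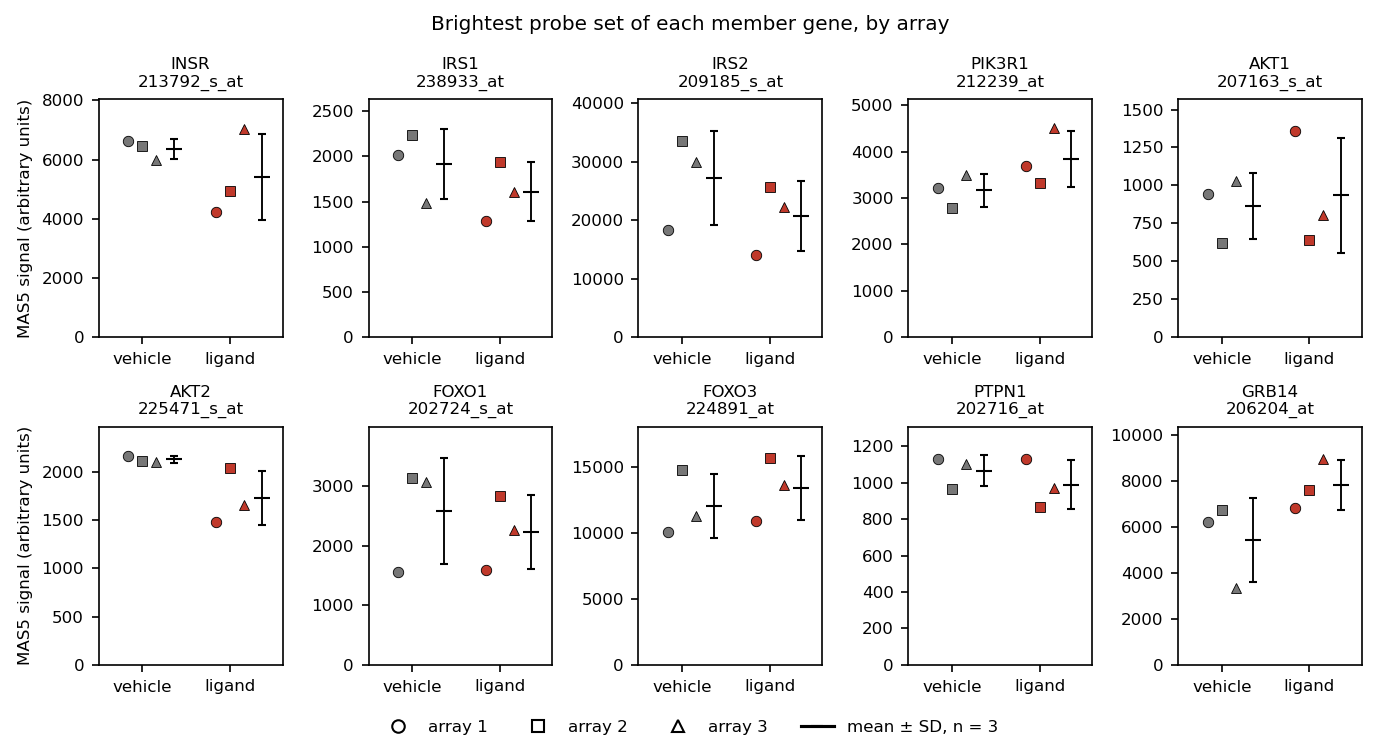
MAS5 signal (arbitrary units, axis from 0) of the brightest tested probe set of each of the 10 genes on 3 vehicle (grey) and 3 ligand (red) arrays, with the mean ± SD as a bar; levels are not comparable between panels. The groups are apart for AKT2 (lower with the ligand) and GRB14 (higher) and overlap for the other 8 genes.

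Of the 33 probe sets, 26 were bright enough to be tested, and 7, from INSR, AKT2 and PTPN1, were not. In limma's moderated test with adjustment over all probe sets, 0 of the 26 passed at 0.05, as did 0% of all 27304. At an unadjusted p under 0.05 there was 1 of the 26, the INSR probe set 226216_at, against 5.58% of all tested probe sets. All ligand arrays lay below all vehicle arrays on 3 of the 26 and above them on 1, against the 4.96% and 5.99% given above. The members were chosen with this comparison known, and nothing is read from these shares. With 1 probe set per gene, the brightest, 4 of the 10 genes had a higher and 6 a lower mean, the median log2 difference was -0.15, and over all 13349 tested genes the median was 0.0027. Using the mean of each gene's tested probe sets, the median of the 10 was -0.031.

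**Figure D3:**
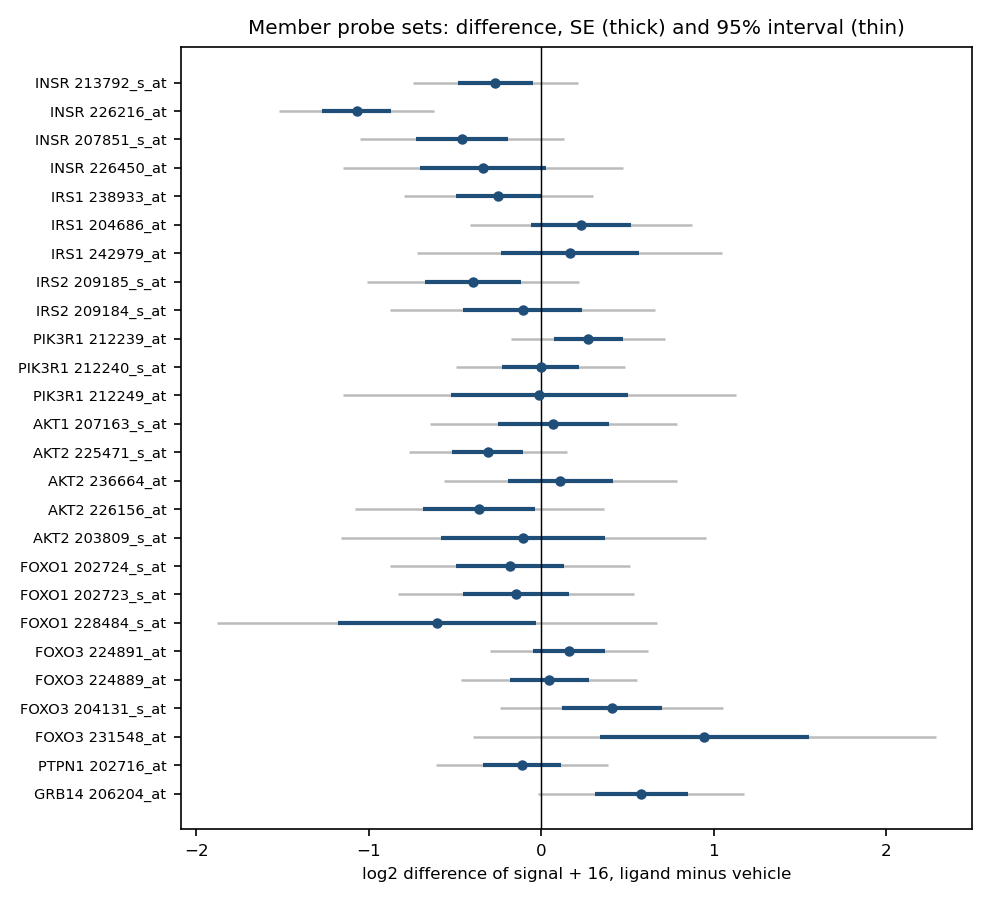
Log2 difference of signal + 16, ligand minus vehicle, for the 26 tested probe sets of the 10 genes, with the SE as a thick line and the 95% interval, not adjusted for the number of probe sets, as a thin one. INSR 226216_at at -1.07 is the lowest, all 4 INSR probe sets lie below 0 and all 4 FOXO3 probe sets above it.

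The range from the lowest to the highest animal of 1 group was wider than the difference between group means for several members. On their brightest probe sets, IRS2, FOXO1 and FOXO3 each had their lowest vehicle signal on array 1 and their highest on array 2. Their lowest and highest ligand signals were likewise on arrays 1 and 2. Their other probe sets differed in this. Ligand array 3 was the highest ligand array on IRS2 209184_s_at, FOXO1 202723_s_at and FOXO3 204131_s_at, at 6068, 2477 and 1109. Ligand array 2 was the highest on FOXO1 228484_s_at and on FOXO3 224889_at and 231548_at. On brightest probe sets, the extremes of IRS2 occurred in 3 of the 10 genes and in 3.05% of all tested genes. The pattern was taken from IRS2 in these same data, so nothing is read from these shares. For FOXO1 the vehicle arrays spanned 2.01-fold and the ligand arrays 1.78-fold, against 1.13-fold between the group means. A range over 3 animals and a difference between means are unlike measures. The labels do not tie equally numbered animals to each other. Over all tested probe sets, which are not independent, the deviations of equally numbered arrays from their group means correlated at 0.040, -0.031 and 0.070. Differently numbered arrays correlated at -0.076 to 0.034.

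With each gene read on its brightest probe set, ligand array 1 was the lowest ligand array for 7 of the 10 genes. These were INSR, IRS1, IRS2, AKT2, FOXO1, FOXO3 and GRB14, and the share over all tested genes was 35.8%. Ligand array 2 was at the same time the highest for 5 of the 10, and this pair of extremes occurred in 17.1% of all tested genes. On their brightest probe sets, genes that insulin represses in liver had the same extremes among the ligand animals in 4 of 8 cases: PPARGC1A, IGFBP1, PDK4 and G6PC1. These extremes are the ones that IRS2 showed on the same arrays, and the genes share the same 3 animals. The shares are therefore a description, and nothing is read from them. PPARGC1A, a coactivator of FOXO1 in the fasted liver, gave 3673 on ligand array 1, 7609 on ligand array 2 and 6512 on ligand array 3. IGFBP1, a binding protein of insulin-like growth factors that insulin shuts off rapidly, gave 1758, 4121 and 3965 on the same arrays, and PDK4, which spares glucose by restraining pyruvate oxidation, 1287, 2619 and 2320. On the vehicle arrays, array 2 was the highest for these 3 genes and the lowest for G6PC1. PCK1, an enzyme of glucose production, ran the other way among the ligand animals, with array 1 the highest at 3475 against 2697 and 1855. So did the second brightest PDK4 probe set, 205960_at, with 840, 496 and 247 on ligand arrays 1, 2 and 3. On PDK4 1562321_at, G6PC1 206952_at and PPARGC1A 1569141_a_at, ligand array 1 was the lowest ligand array and ligand array 2 the highest. The feeding state of the animals is not given in the sources used here, and its part in these values was not tested.

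**Figure D4:**
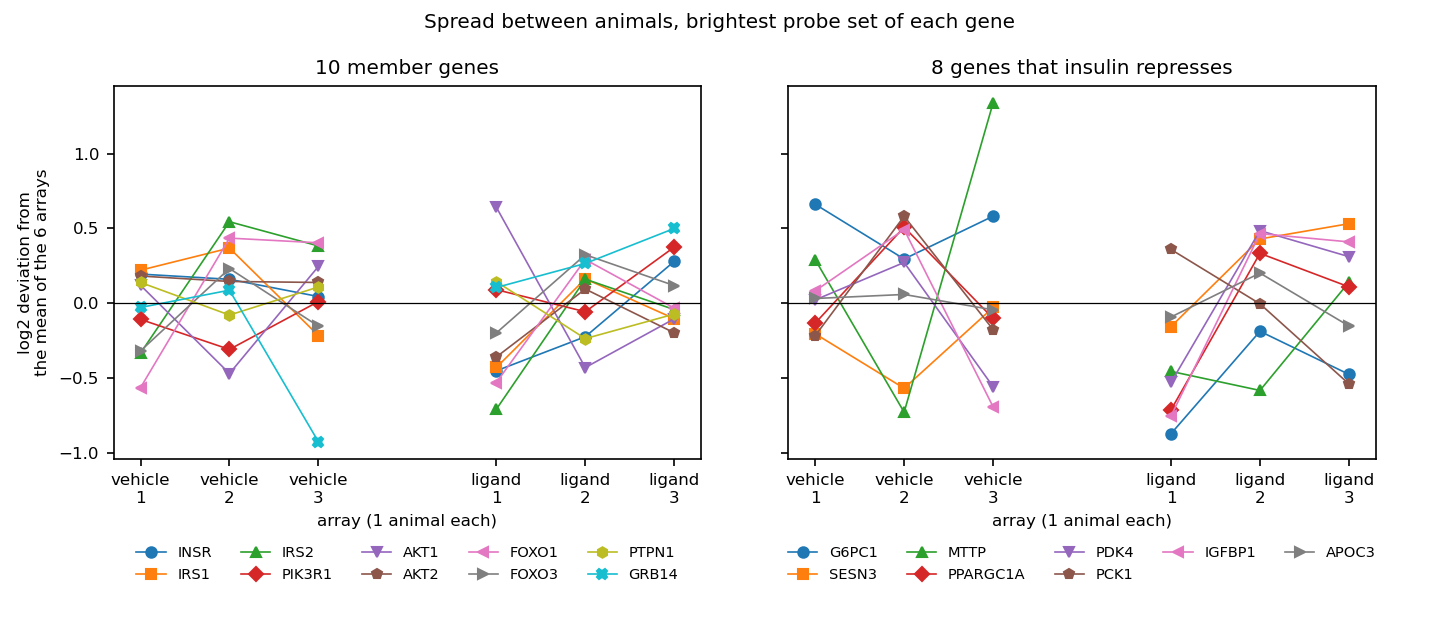
Log2 deviation of signal + 16 from the gene's mean over the 6 arrays (brightest probe set), by array, for the 10 member genes (left) and the 8 listed genes that insulin represses (right); lines only join the points of a gene within a group, and arrays have no order. Ligand array 1 is the lowest and ligand array 2 the highest ligand array for 5 of the 10 members and 4 of the 8 repressed genes, and PCK1 has its highest ligand signal on array 1.

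The genes whose transcription insulin controls in liver gave a mixed picture. Of 8 listed genes that insulin represses, all were measured, and 3 had a higher and 5 a lower mean with the ligand. In limma 0 passed with adjustment over all probe sets. At an unadjusted p under 0.05, reached by 817 of all 13349 tested genes, there was 1 of the 8. That was G6PC1, which releases free glucose from glucose 6-phosphate, at 17400, 13494 and 16462 with vehicle and 5991, 9645 and 7895 with the ligand, a log2 difference of -1.03 ± 0.21 (SE) with no overlap between the groups. A second G6PC1 probe set, 206952_at, gave 560, 716 and 487 against 332, 750 and 592, with overlapping groups. PCK1, the other committed enzyme of glucose production, gave 2324, 4056 and 2391 against 3475, 2697 and 1855, and its log2 difference was -0.12 ± 0.29 (SE).

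IGFBP1 had vehicle signals of 3155, 4200 and 1837 and a log2 difference of 0.080 ± 0.38 (SE), which turned negative when vehicle array 3 or either of ligand arrays 2 and 3 was left out. PDK4 had 1895, 2257 and 1262 with vehicle and 0.18 ± 0.31 (SE), negative without vehicle array 3 or ligand array 2. PPARGC1A had 5499, 8595 and 5623 with vehicle and -0.18 ± 0.29 (SE), positive without vehicle array 2 or ligand array 1. Each of these 3 differences, all on brightest probe sets, was smaller than its SE. The dimmer PDK4 probe sets 205960_at and 1562321_at had log2 differences of 0.040 ± 0.49 and 0.49 ± 0.42 (SE). A dimmer PPARGC1A probe set, 1569141_a_at, had -0.54 ± 0.87 (SE). Groups overlapped on each of these dimmer probe sets.

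SESN3, a FOXO target that favours AKT activity, gave 1137, 879 and 1286 with vehicle and 1176, 1774 and 1905 with the ligand. Only ligand array 1 lay inside the vehicle range, and the log2 difference was 0.54 ± 0.26 (SE). The other tested SESN3 probe sets, 235684_s_at and 235683_at, had 0.46 ± 0.37 and 0.16 ± 0.59 (SE). All ligand arrays were above all vehicle arrays on 235684_s_at, and the groups overlapped on 235683_at. MTTP, which loads lipid onto apolipoprotein B, and APOC3, an inhibitor of lipoprotein clearance, had log2 differences of -0.60 ± 0.61 and -0.030 ± 0.16 (SE). The MTTP value was -0.081 without vehicle array 3 and -1.12 without vehicle array 2, and the APOC3 value turned positive without ligand array 1 or 3.

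Of 4 listed genes that insulin induces, 2 were bright enough to be tested, both are also direct targets of LXR, and 0 passed with adjustment over all probe sets. SREBF1, a driver of fatty acid synthesis genes, gave 337, 408 and 541 with vehicle and 3826, 1289 and 3450 with the ligand, a log2 difference of 2.57 ± 0.39 (SE). FASN, the fatty acid synthase, gave 799, 934 and 1234 against 2062, 1316 and 1440, with 0.69 ± 0.26 (SE). For both, every ligand array was above every vehicle array, as for 829 of all 13349 tested genes. Both had an unadjusted limma p under 0.05, as did 817 of those 13349. SREBF1 passed without ligand array 2 (limma adjusted p = 0.0453, against 0.242 to 0.794 under the other alternatives). A dimmer probe set of each had a log2 difference in the other direction, -0.60 for SREBF1 and -0.22 for FASN.

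Other genes of insulin signalling were taken from a list of 51, of which 45 were measured. In limma's moderated test 0 rose and 0 fell with adjustment over all probe sets. At an unadjusted p under 0.05 there were 2 of the 45, against 817 of all 13349 tested genes. All ligand arrays lay above all vehicle arrays for 1 and below them for 2, against 829 and 695 of the 13349. Of the 45, 22 had a higher and 23 a lower mean, and the median log2 difference was -0.048. That median was 0.038 without vehicle array 3, 0.0076 without ligand array 1 and 0.00072 with the probe sets of a gene averaged. Log2 differences ran from -1.08 to 1.15, at the probe sets of PIK3IP1 and PIK3R3, whose mean signals over the 6 arrays were 313 and 214.

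CEACAM1, a substrate of the insulin receptor that promotes insulin clearance by hepatocytes, had the smallest p of the list. It gave 696, 906 and 809 with vehicle and 1456, 1046 and 1363 with the ligand, with no overlap and a log2 difference of 0.66 ± 0.24 (SE). Its other 4 tested probe sets had positive differences of 0.049 to 1.07, all with overlapping groups, and some of them are of the type (suffix _x_at) that can also bind related CEACAM transcripts. TRIB1, a pseudokinase of the tribbles family, gave 5577, 3516 and 4456 with vehicle and 2636, 3276 and 3491 with the ligand, also without overlap, and its log2 difference was -0.51 ± 0.22 (SE).

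Of the remaining genes named by the same rule, those with higher means did not separate the groups. PIK3R3, another regulatory subunit of phosphatidylinositol 3-kinase, had 1.15 ± 0.61 (SE), which was 0.39 without vehicle array 1, where its signal was 30.2. PTPRF, a receptor-type tyrosine phosphatase, had 0.37 ± 0.29 (SE), or 0.11 without vehicle array 3. The other tested PTPRF probe sets had log2 differences of 0.43 and -0.045. ENPP1, a membrane protein that inhibits the receptor, and RHEB, the GTPase that activates the mTOR complex, had 0.21 ± 0.18 and 0.17 ± 0.16 (SE). However, 4 of the other 6 tested RHEB probe sets had a lower mean with the ligand. The other tested ENPP1 probe sets had log2 differences of -0.080 and 0.41.

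On the lower side, PIK3IP1, an inhibitor of the same lipid kinase, had -1.08 ± 0.59 (SE), which was -0.33 without ligand array 3. The other tested PIK3IP1 probe sets had log2 differences of -0.51 and -0.015. TSC2, which restrains RHEB, had -0.51 ± 0.29 (SE) with 717, 1044 and 911 against 461, 589 and 854. SOS1, an exchange factor that links receptors to RAS, had -0.36 ± 0.22 (SE), and 1 of its other 3 tested probe sets pointed upward. EIF4EBP1, the translation repressor that mTOR inactivates, gave 971, 1068 and 897 with vehicle and 729, 869 and 724 with the ligand, with no overlap and a log2 difference of -0.33 ± 0.23 (SE).

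**Figure D5:**
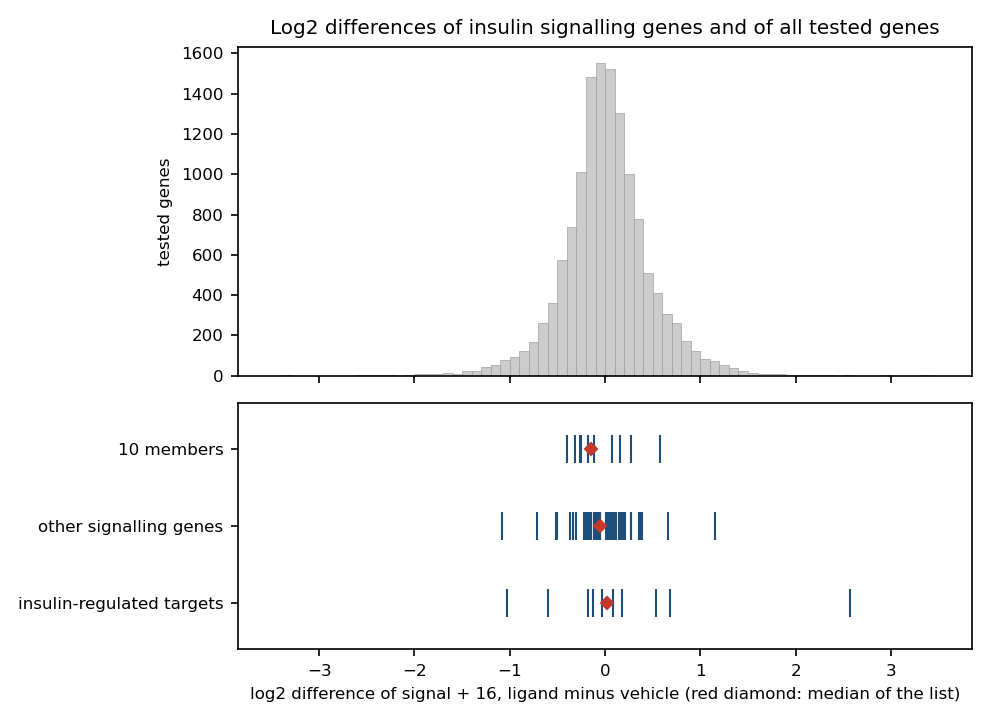
Upper panel, number of tested genes by log2 difference of signal + 16, ligand minus vehicle (brightest probe set, bins of 0.1); lower panel, each gene of 3 lists as a tick, with the list's median as a red diamond. The medians lie at -0.15 for the 10 members, -0.048 for the 45 other signalling genes and 0.025 for the 10 insulin-regulated targets, of which SREBF1 at 2.57 is the highest.

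Markers of hepatocytes were bright on every array, and all measured macrophage markers had higher means with the ligand. In limma 0 markers passed with adjustment over all probe sets. At an unadjusted p under 0.05 there were 12 of the 31 measured, against 817 of all 13349 tested genes. The markers were listed with earlier results of these data known, and nothing is read from these counts. All 8 hepatocyte markers were measured, 6 with a higher and 2 with a lower mean, and their summed signal was 701416 to 842911 with vehicle and 768696 to 855087 with the ligand. Markers of fat cells and skeletal muscle (ADIPOQ, PLIN1, LEP, MYH2, ACTA1 and CKM) were all too dim to be tested, with mean signals of 21.0 to 73.7 over the 6 arrays. All 7 measured macrophage markers, of 8 listed, had higher means with the ligand, and their summed signal was 5158 to 7769 with vehicle and 11840 to 13316 with the ligand. Of 8 endothelial markers 7 had higher means, and VWF, a clotting factor of endothelial cells, was lower, with 4667, 2129 and 1340 against 157, 156 and 377. The endothelial sum was 10136 to 11954 with vehicle and 9870 to 12665 with the ligand, and without VWF it was 7286 to 8959 against 9714 to 12288. Of 6 stellate cell markers 4 had higher and 2 lower means, with sums of 15604 to 24007 and 28598 to 42885 in which COL3A1 and DCN weighed most; COL1A1 was lower on every ligand array, at 2129, 2003 and 1991 against 1549, 1909 and 1817. The measured T and NK cell markers, 2 of 5, had a median log2 difference of 0.0019. In a piece of liver, fewer cells of a type and less RNA per cell cannot be told apart, and the part of the macrophage, endothelial and stellate cell signal in the differences of INSR, GRB14 and the other genes was not tested.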

How the data were processed

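Liver RNA of 6 macaques was read on 1 array per animal. The authors deposited intensity values on a linear scale, which are MAS5 signals per the submitters' processing notes; the version, scaling target and filters are not given in the sources used here. The 2% trimmed mean was 500.1 on every array, and median signals were 111 to 139. Detection calls were not used, and a low signal does not separate a weak transcript from none. The number of arrays limits the precision.

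Groups came from the titles. Signals were transformed to log2(signal + 16), which understates the differences of dim probe sets, with the deposited scaling kept. After 62 control probe sets were left out, the 27304 probe sets with a mean signal at or above the median of 129 were tested in limma 3.58.1 (R 4.3.3) with lmFit and trended eBayes, two-sided, without covariates, with Benjamini-Hochberg adjustment over all of them and a threshold of 0.05. Intervals are limma's 95% intervals for a single probe set. The fit was tested on simulated data. Plots used matplotlib 3.10.9 under Python 3.11.15.

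Symbols came from the platform annotation, where 41097 probe sets had 1 symbol, 1801 several and 11777 none. The macaque annotation was used for names only. A gene was represented by its brightest tested probe set. The members and all lists were chosen with earlier results of these data known. Named were all 10 members with every probe set, the measured genes of a list of 12 insulin-regulated targets, and the 5 genes in each direction with the smallest p from 51 other signalling genes.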

Additional observations from a re-analysis of the deposited data

How the results depend on the processing

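Alternatives were quantile normalization or median centring of arrays, pseudocounts of 1 and 64, testing every probe set or those above the 75th percentile, untrended and robust eBayes, array weights, a block for replicate number, a threshold of 0.10, the mean of a gene's tested probe sets, and leaving out each array. Under all of them 0 member probe sets and 0 other signalling genes passed. With the replicate block 0 probe sets passed in all. At an unadjusted limma p under 0.05 there were then 2 member probe sets, and 1707 of all 27304. The labels give no pairing, and with 3 arrays per group the correlations of deviations cannot decide whether there was one. Over the fits without 1 array, between 0 and 1 of all probe sets passed (1 without vehicle array 2 and 1 without ligand array 2), as did 0 to 1 of the insulin-regulated targets, SREBF1 without ligand array 2. The median log2 difference of the 10 genes was -0.17 to -0.031 over these alternatives. All 737 alternative values of single probe sets stayed within 1 SD of animals of a group. Leaving out 1 of 3 arrays cannot move a difference that far, and the filter, eBayes and block settings leave it unchanged. No stability is therefore read from this count. That SD exceeds the difference itself for many members, and leaving out 1 array turned the sign for several of them. The 3 animals in a group set the limit: log2 differences had a median SE of 0.35.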
